A study of Homo sapiens with 9 samples.

Results

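The genes for the proteins of the cytosolic ribosome were described in SKNO-1 cells with and without knockdown of ASXL2. Members were chosen by symbol alone: the large-subunit names RPL followed by a number and an optional A, the stalk proteins RPLP0, RPLP1 and RPLP2, the small-subunit names RPS followed by a number and an optional A or X, and RPSA. This gave 77 of the 25680 gene symbols in the count tables, 46 of the large and 31 of the small subunit, spread over 21 chromosomes with 12 of them on chromosome 19. SKNO-1 cells, grown with GM-CSF, come from a human acute myeloid leukaemia and express the AML1-ETO (RUNX1-RUNX1T1) fusion, which all 9 samples carry. There were 3 samples in each of 3 groups, namely controls (shControl, labelled EV without explanation, and described as carrying a control shRNA in the study), and cells with either of 2 short hairpin RNAs against ASXL2, shASXL2-2 and shASXL2-3. All groups are of this single line, and whether the cells were clones or pools was not given in the sources used here. Each group held a sample labelled 1, a sample labelled 13 and a sample labelled 25. The labels do not say what these numbers stand for, and they are called numbers 1, 13 and 25 here. Because every number held 1 sample of each group, group and number could be compared separately.

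A ribosome joins a small subunit, which reads the messenger RNA, to a large subunit, which forms the peptide bond, and it holds a single copy of most of its proteins. In mammals most ribosomal protein mRNAs begin with a C followed by an unbroken run of C and T, the 5′ terminal oligopyrimidine (TOP) motif, through which mTORC1 and the RNA-binding protein LARP1 set how strongly they are translated and how stable they are. Translation elongation factors and several noncoding hosts of small nucleolar RNAs share this start. Haploinsufficiency of single ribosomal protein genes causes Diamond-Blackfan anaemia, and loss of RPS14 is part of the 5q- syndrome.

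The starts of several members are shown because their letters are what the family shares beyond its names. RefSeq start sites (build GRCh38.p14, while the counts are on GRCh37) were listed for 62 of the 77 members, with 77 starts in all. Each sequence below runs 5′ to 3′ on the gene's strand with 15 bases before and 15 from the start base, and the capitals mark the unbroken run of C and T that begins at the start base, as far as the window goes.
RPL13A (chr19:49487593-49487622, plus strand): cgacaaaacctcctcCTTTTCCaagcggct
RPL31 (chr2:101002274-101002303, plus strand): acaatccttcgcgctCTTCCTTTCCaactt
RPS6 (chr9:19380222-19380251, minus strand): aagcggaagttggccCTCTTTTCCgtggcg
RPS12 (chr6:132814554-132814583, plus strand): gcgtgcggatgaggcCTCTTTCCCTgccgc
RPLP1 (chr15:69452803-69452832, plus strand): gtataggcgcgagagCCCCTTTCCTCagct
RPL35 (chr9:124861943-124861972, minus strand): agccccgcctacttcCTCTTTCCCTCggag
RPL39 (chrX:119791616-119791645, minus strand): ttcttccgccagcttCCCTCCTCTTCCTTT
RPL3 (chr22:39319609-39319638, minus strand): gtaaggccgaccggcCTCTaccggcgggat
RPL10A (chr6:35468386-35468415, plus strand): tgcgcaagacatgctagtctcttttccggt
RPS26 (chr12:56041903-56041932, plus strand): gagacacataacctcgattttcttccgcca

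A start base C with at least 4 more pyrimidines directly after it was found at some start of 46 of the 62 members, or 74.2%, and of 5.14% of all 27305 genes in the table. RPL10A and RPS26 have no C at the listed start, and the run of RPL3 is 4 bases long. In RPL39 the run continued beyond the window and was 19 bases long, the longest among the members. Short motifs were also counted, on both strands, in the 250 bases before the start. CCGGAAG, which ETS-family factors read, was found in 33.9% of these members and 10.2% of all genes, and TCGCGA in 24.2% and 3.20%. The motif TATAAA was found in 8.06% and 13.0%, the E-box CACGTG in 4.84% and 7.73%, and AAGATGG, read by YY1, in 1.61% and 4.49%. The ETS and YY1 motifs can overlap, and a match describes letters, not a bound site.

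The libraries held 27714431 to 35406063 counts with 1 RefSeq transcript per gene. ASXL2 (chr2:25956622-26101356, minus strand, GRCh37) measured 67.9, 67.9 and 74.7 CPM in shControl, 30.4, 36.2 and 36.2 CPM in shASXL2-2 and 26.9, 29.1 and 41.1 CPM in shASXL2-3, so all knockdown samples lay below all controls. On the log2 scale it differed by -1.03 ± 0.16 (SE) and -1.12 ± 0.16. CPM are a gene's counts relative to the size of its library, after TMM scaling of library sizes (edgeR). Its edgeR adjusted p, over 14199 genes tested, was 0.808 for shASXL2-2 and 0.612 for shASXL2-3, and 0.00470 and 0.00407 with the sample number as a block (paired fit). Of the markers of the cell line, myeloid blast genes summed to 7059 to 11068 CPM, and those of T cells, erythroid cells, fibroblasts and epithelium to at most 0.375 CPM each. MPO made up most of the blast sum, with a mean of 8438 CPM over the 9 samples. CD34, of the same list, held only 2 to 10 counts per sample. B cell markers summed to 50.3 to 67.5 CPM and monocyte markers to 1.61 to 6.33 CPM. Of the 4 B cell markers, 2 had enough counts to be tested and 1 was at 0 in every sample.

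Together the members took 7.16% to 12.2% of the counts of a sample. Of the 77, 76 passed the filter on low counts. RPS18, a protein of the small-subunit head, did not: it held 1 to 4 counts per sample, near the floor of 3 counts, although every small subunit contains it. How the authors treated reads that match several places in the genome, such as the many processed copies of these genes, was not given in the sources used here, so the low level of RPS18 is uncertain. Of 33 members with several RefSeq transcripts, the second transcript held at least 98% of the counts of the first in 31, and the lowest share was 82.1%.

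Per length, the levels of the members ranged widely. The length used here is the median over the annotated coding transcripts of a gene, because the canonical transcript exceeded 2000 nt for 17 members. Among the highest mean levels over the 9 samples were 4574 CPM per kb for RPS12, 4128 for the stalk protein RPLP1 and 3363 for RPL37. Among the lowest, beside RPS18, were 125 CPM per kb for RPL14, whose annotated median of 7072 nt is itself long, and 216 for RPS26. The quartiles of the 76 tested members were 1084 and 2177 CPM per kb, around a median of 1404. In CPM not divided by length, the 46 large-subunit members summed to 1.52 to 1.56 times the 31 small-subunit members in every sample. That ratio also depends on how many genes each sum holds, and RPS18 added almost nothing to the small-subunit sum.

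**Figure D1:**
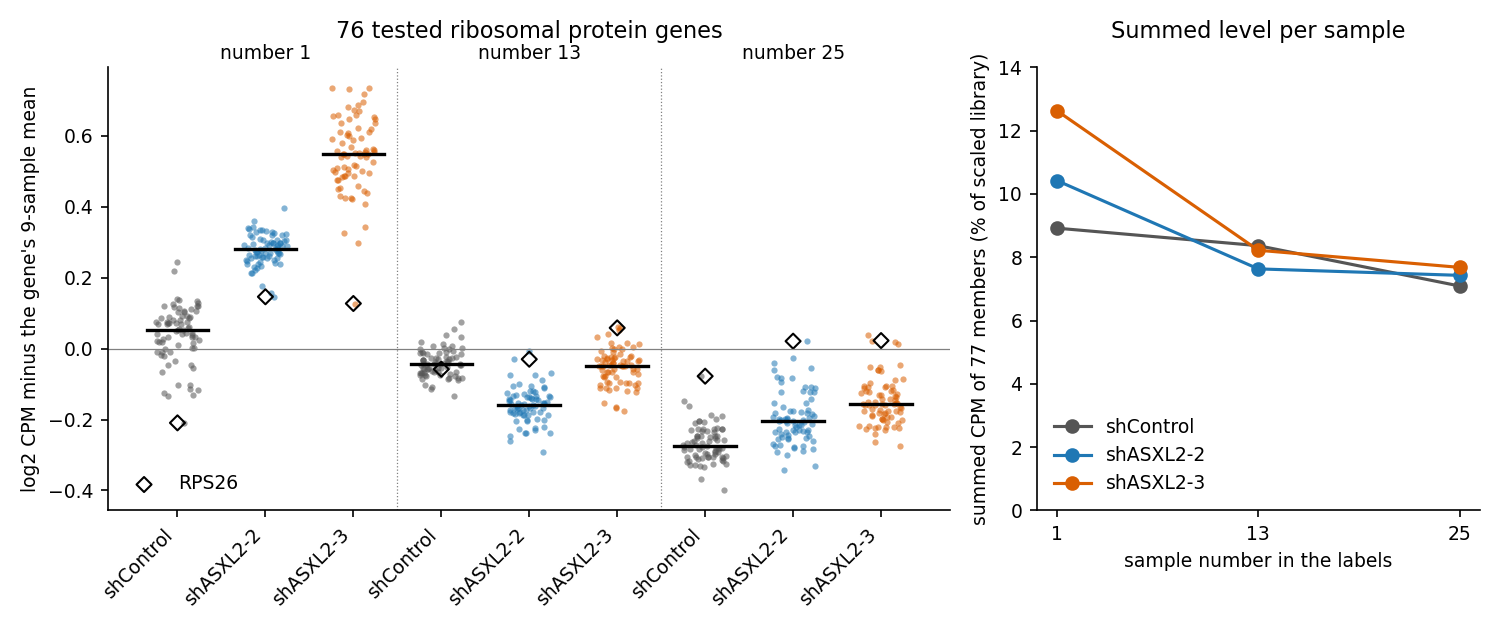
Left, log2 CPM of each of the 76 tested members minus its own mean over the 9 samples, ordered by number and coloured by group, with black lines at the median of the members and diamonds for RPS26. Right, summed CPM of all 77 members as a percentage of the TMM-scaled library size; the shASXL2-3 sample numbered 1 reaches 12.6% and the samples numbered 25 lie between 7.09% and 7.68%.

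The first question was whether knockdown of ASXL2 moved these genes. Relative to the TMM-scaled library size, the members summed to 8.92%, 8.37% and 7.09% in the shControl samples numbered 1, 13 and 25, 10.4%, 7.63% and 7.43% in shASXL2-2, and 12.6%, 8.22% and 7.68% in shASXL2-3. The groups overlapped, and the 2 highest values belonged to the knockdown samples numbered 1. No member passed the test with either shRNA, nor did any other gene: 0 of 14199 genes (0%) had an edgeR adjusted p under 0.05 for shASXL2-2, for shASXL2-3, for both averaged or for one shRNA against the other. At an unadjusted p under 0.05 there were 762, 723, 942 and 293 genes in these comparisons (5.37%, 5.09%, 6.63% and 2.06%), with 0 members in each. DESeq2 called 21, 26, 52 and 11 genes (0.148%, 0.183%, 0.366% and 0.0775%), again with 0 members. It had 0, 1, 1 and 0 members at an unadjusted p under 0.05, beside 6.17%, 6.03%, 7.55% and 2.43% of all tested genes. With the sample number as a block (paired fit), edgeR called 40 genes (0.282%) for shASXL2-2, 59 (0.416%) for shASXL2-3, 156 (1.1%) for both and 15 (0.106%) between the shRNAs, and 0 members in each. In that fit the members at an unadjusted p under 0.05 were 0 of 76 for shASXL2-2, 27 for shASXL2-3, 10 for both and 1 between the shRNAs, beside 18.7%, 18.7%, 20.4% and 11.9% of all tested genes.

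The fitted values were nevertheless mostly positive. The median log2 fold change of the 76 members was 0.07 for shASXL2-2 and 0.23 for shASXL2-3, against 0.01 and 0.01 over all tested genes, with positive values for 71 and 76 members. For shASXL2-3 against shASXL2-2 it was 0.16, with 76 positive values and a smallest adjusted p of 0.998. The highest values for shASXL2-3 were RPS27 at 0.31 ± 0.24 (SE), RPL23A at 0.31 ± 0.19 and RPL9 at 0.30 ± 0.23, and the lowest was RPL3, a core protein near the peptidyl transferase centre, at 0.16 ± 0.28. For shASXL2-2, RPLP2, a protein of the stalk that recruits elongation factors, had 0.19 ± 0.16 and RPL3 -0.05 ± 0.28. In these comparisons the smallest adjusted p of a member was 0.957 for shASXL2-2 and 0.971 for shASXL2-3, and both share the control samples.

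The differences from shControl were not alike at the 3 numbers. Compared within a number, the members of shASXL2-3 lay above shControl by a median of 0.50 on the log2 scale at number 1 (76 of 76 higher), by -0.0034 at number 13 (37 of 76 higher) and by 0.12 at number 25 (76 of 76 higher). For shASXL2-2 the medians were 0.24 (76 of 76 higher), -0.12 (4 of 76 higher) and 0.07 (68 of 76 higher). Without the shASXL2-3 sample numbered 1, the median for shASXL2-3 was -0.03 with 27 of 76 positive, and that for shASXL2-3 against shASXL2-2 was -0.09 with 2 of 76 positive. Without the shASXL2-2 sample numbered 1, the median for shASXL2-2 was -0.10 with 13 of 76 positive. From numbers 13 and 25 alone, with the number as a block, the medians were -0.02 and 0.05.

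RPS26 was the only tested member whose 6 knockdown samples all lay above the 3 controls, against 2.16% of all tested genes, and none had all 6 below, against 2.61%. It encodes a protein at the mRNA exit channel and is mutated in Diamond-Blackfan anaemia. Its level (chr12:56435135-56438481, plus strand, GRCh37) was 212, 236 and 233 CPM in shControl, 272, 241 and 249 CPM in shASXL2-2 and 268, 256 and 249.6 CPM in shASXL2-3, each in the order of numbers 1, 13 and 25. With both shRNAs averaged, its fitted log2 difference from shControl was 0.17 ± 0.08 (SE), with an edgeR adjusted p of 0.755. The gap between the highest control and the lowest knockdown sample, 236 and 241 CPM, was smaller than the spread within either set.

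**Figure D2:**
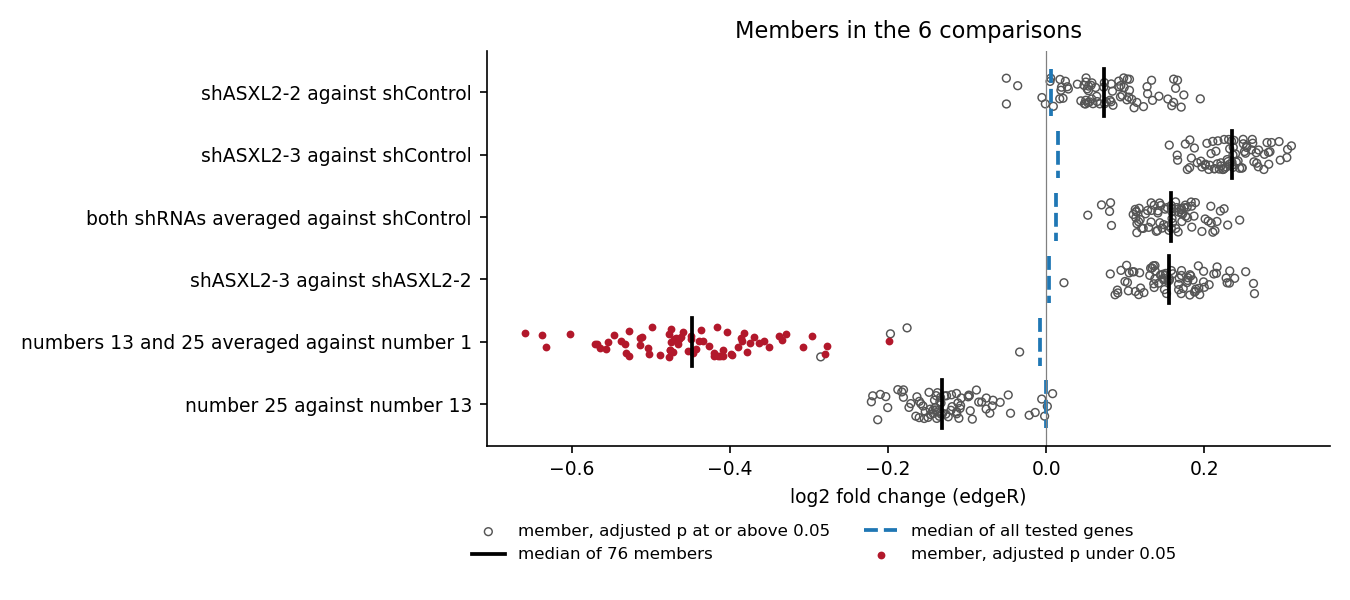
Log2 fold change of the 76 tested members in the 6 comparisons, with filled points for an adjusted p under 0.05, solid lines at the median of the members and dashed lines at the median of all 14199 tested genes. Filled points appear only for numbers 13 and 25 against number 1, where 72 members lie to the left of 0 and the median is -0.45.

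The second question was how the samples with different numbers compared. With group kept as a term, 72 of the 76 members fell from number 1 to the mean of numbers 13 and 25 and 0 rose, against 24.1% of all tested genes that fell and 22.2% that rose. All 76 fitted values were negative, with a median of -0.45 (1.36-fold lower) beside -0.01 over all genes. The samples numbered 1 all lay above the other 6 samples in 62 of the 76 members, against 14.4% of all tested genes. In 53 members the order was number 1 above 13 above 25 in all 3 groups, against 7.8%. In all, 46.3% of the genes tested passed in this comparison. The 3 monocyte markers summed to 3.19 to 6.33 CPM at number 1 and 1.61 to 2.91 CPM at the other numbers, and 2 of 2 tested fell. Of the other markers tested, CD79A of B cells (-0.43 ± 0.15, adjusted p = 0.0423) and KIT of blasts (-0.36 ± 0.08, adjusted p = 0.00660) also fell, and ANPEP of blasts rose (0.32 ± 0.07, adjusted p = 0.00469). None of the 3 monocyte markers was at 0 in every sample, and the part of these markers in the fall of the members was not tested. In these bulk samples, fewer cells that express a gene and less RNA per cell cannot be told apart.

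RPL13A (chr19:49990767-49996314, plus strand, GRCh37), a large-subunit protein that is also known for a role outside the ribosome, had the lowest fold change. Its level in the order of numbers 1, 13 and 25 was 2757, 2493 and 1837 CPM in shControl, 3036, 1995 and 1881 CPM in shASXL2-2 and 3935, 2115 and 1957 CPM in shASXL2-3. Within each group the sample numbered 1 was the highest, and the log2 fold change was -0.66 ± 0.11 (SE, edgeR adjusted p = 0.00135). RPL10A (chr6:35436178-35438562, plus strand), at the L1 stalk through which spent tRNA leaves, measured 775, 686 and 536 CPM in shControl, 930.1, 624 and 578 CPM in shASXL2-2 and 1177, 654 and 599 CPM in shASXL2-3. It changed by -0.64 ± 0.10 (adjusted p = 0.000882), the smallest adjusted p among the members. RPL3 (chr22:39708887-39716394, minus strand) measured 2945, 2553 and 1977 CPM in shControl, 3135, 2122 and 1962 CPM in shASXL2-2 and 3990.4, 2200.0 and 2137 CPM in shASXL2-3, a change of -0.63 ± 0.10 (adjusted p = 0.00108). RPS15A, of the small subunit, changed by -0.53 ± 0.09 (adjusted p = 0.00115) at 364 to 677 CPM. In each of these genes all 3 samples numbered 1 lay above the other 6.

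Members with other roles fell as well. Of the stalk, RPLP0 changed by -0.48 ± 0.09, RPLP1 by -0.42 ± 0.09 and RPLP2 by -0.30 ± 0.08 (adjusted p = 0.0113). RPL4, whose extension lines the exit tunnel, changed by -0.45 ± 0.09. Among the shortest proteins of the ribosome, RPL41 changed by -0.41 ± 0.08 and RPL39 by -0.50 ± 0.09. RPL5 and RPL11, which bind the 5S RNA and can hold MDM2, changed by -0.53 ± 0.09 and -0.44 ± 0.09. RPS6, the substrate of S6 kinase whose start is shown above, had 3161, 2838 and 2337 CPM in shControl, 3544, 2432 and 2392 CPM in shASXL2-2 and 4567, 2669 and 2479 CPM in shASXL2-3, and changed by -0.56 ± 0.10 (adjusted p = 0.00193). All of these passed the test.

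Most of the genes mutated in disease of the blood fell, as did 72 of the 76 tested members. RPS26, of Diamond-Blackfan anaemia, did not pass. RPS19, a gene long linked to Diamond-Blackfan anaemia, changed by -0.39 ± 0.09 (adjusted p = 0.00623), RPS24 by -0.45 ± 0.09 and RPL35A by -0.43 ± 0.09. RPS14 of the 5q- syndrome changed by -0.48 ± 0.09 (adjusted p = 0.00224). RPL22 and RPL10, which are mutated in leukaemia, changed by -0.42 ± 0.07 and -0.48 ± 0.08. Of further members, named for other reasons, RPS4X, on the X chromosome, changed by -0.46 ± 0.08, RPSA, also known as the laminin receptor, by -0.35 ± 0.08 and RPS27A, made as a fusion to ubiquitin, by -0.38 ± 0.08.

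Among the members that missed the test were RPL8 (-0.20 ± 0.09, adjusted p = 0.0880), RPL35 (-0.18 ± 0.08, adjusted p = 0.0943) and RPS26 (-0.03 ± 0.07, adjusted p = 0.699). RPL8 measured 2416, 2526 and 2362 CPM in shControl, 2988, 2435 and 2595 CPM in shASXL2-2 and 3357, 2599 and 2666 CPM in shASXL2-3, and RPL35 556, 599 and 550.4 CPM in shControl, 679, 546 and 593 CPM in shASXL2-2 and 764, 611 and 618 CPM in shASXL2-3. In shControl number 13 was the highest for both, and with either shRNA number 1 was. RPS26 departed from the family mean more than any other tested member, with an SD of 0.22 over the 9 samples of its log2 level relative to the mean of the members. That SD was 0.14 for RPL35, RPS15 and RPL8 and 0.02 for RPL35A, among the steadiest. RPL13A, at 0.14, and RPL3, at 0.12, departed to the other side, lying above the family mean at number 1.

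**Figure D3:**
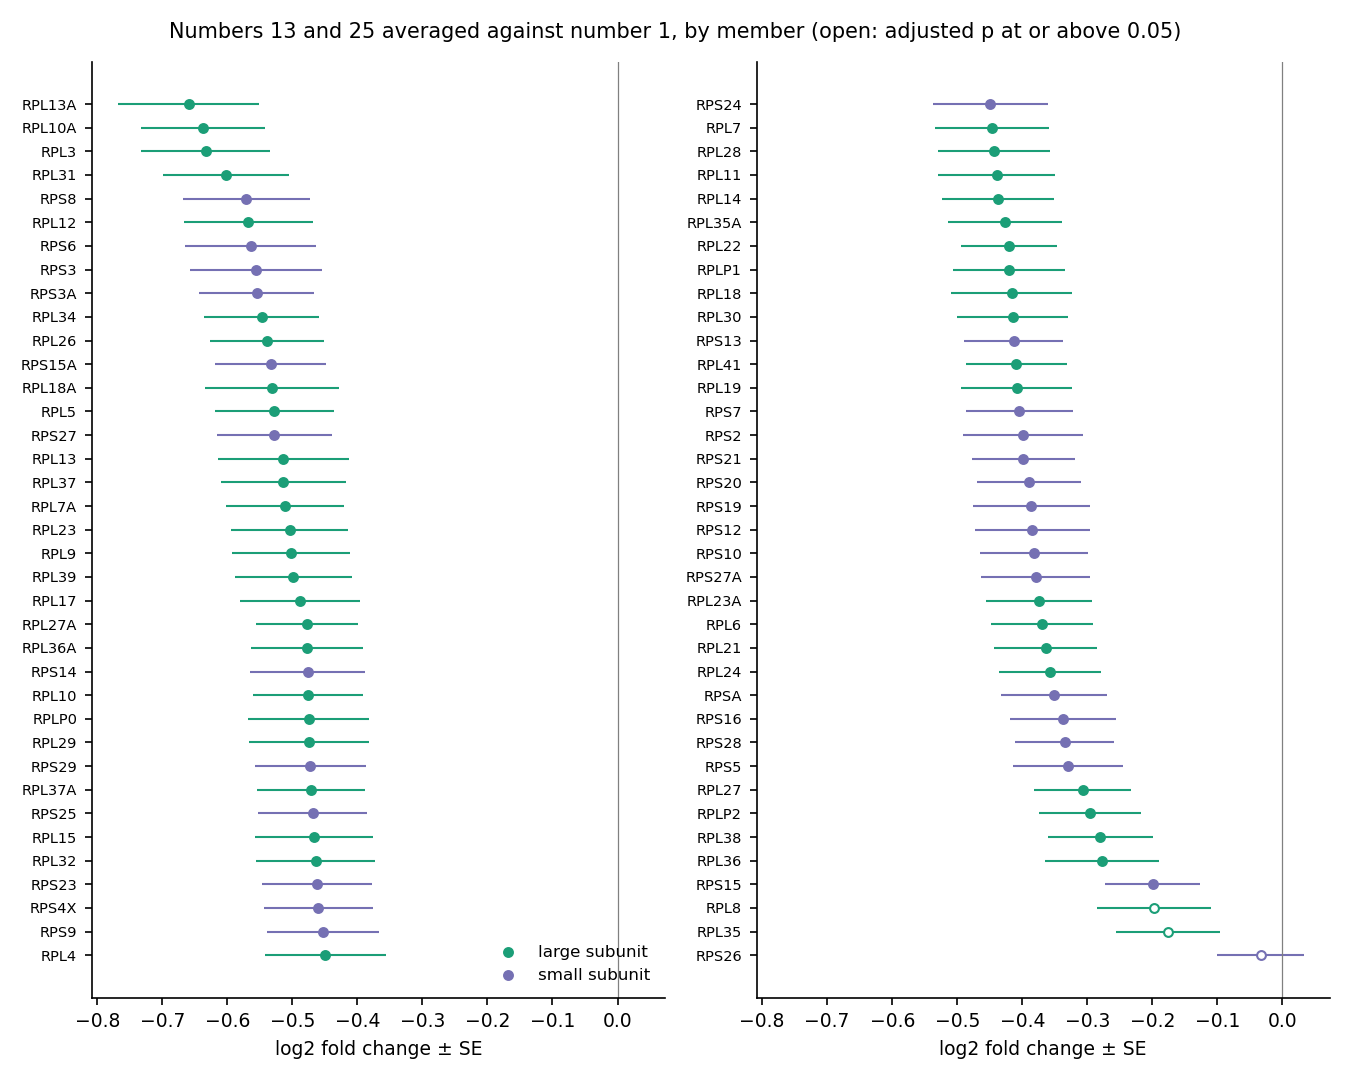
Log2 fold change ± SE of 74 tested members for numbers 13 and 25 averaged against number 1, sorted from RPL13A at -0.66 to RPS26 at -0.03, green for the large and violet for the small subunit. Open symbols mark the 3 members drawn with an adjusted p at or above 0.05.

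The values were also set out by subunit and by start. The median was -0.47 over the 46 large-subunit members and -0.41 over the 30 tested small-subunit members. Of these, 44 and 28 were called lower, against 24.1% of all tested genes. Among the tested members with a TOP start as defined above, 44 of 45 fell, with a median of -0.45. Those with a listed start but no such run had a median of -0.45, with 15 of 16 called lower. RPL10A and RPL3 belong to the latter, and so does RPS26, the member nearest to 0. The 15 members without a listed start had a median of -0.43, with 13 called lower. The sorting rests on the exact start base listed. In RPL10A and RPS26 a run of C and T follows within a few bases of it, so whether they lack a TOP start is uncertain. RPL35, with a run of 11 bases shown above, did not pass.

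Between numbers 25 and 13 the fitted values were also mostly negative. The median was -0.13, with 74 of 76 negative, and 0 members passed the test, against 5.87% of all genes called and 3.1% called lower. At an unadjusted p under 0.05 there were 0 members, against 23.8% of all genes. DESeq2 called 0 members too, against 6.73% of all genes, with 5 members at an unadjusted p under 0.05, against 19.1%. The lowest values were RPL15 at -0.22 ± 0.11, RPL13A at -0.22 ± 0.13 and RPL5 at -0.21 ± 0.11. RPL23A had the smallest p, with -0.21 ± 0.10 (adjusted p = 0.216), and was the 1 member that passed without the shASXL2-3 sample numbered 1 (adjusted p = 0.0349), where 19.2% of all genes passed and 9.37% were lower. Without the shControl sample numbered 13 the median was -0.02.

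The step from number 1 was not of one size in the groups. From number 1 to 13 the median log2 difference of the members was -0.09 in shControl (67 of 76 lower), -0.44 in shASXL2-2 and -0.60 in shASXL2-3 (76 of 76 lower in both). From number 1 to 25 it was -0.32, -0.49 and -0.72. With 1 sample per group and number, no residual degree of freedom was left for a test of that difference. In shControl the larger step lay between numbers 13 and 25, with a median of -0.23 and 76 of 76 lower.

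Transcript length is given beside these values because the members are short. Other genes were sorted into 5 classes by the length of the canonical transcript. For both shRNAs averaged, the median log2 fold change was 0.11 in the class of at most 1646 nt and -0.10 in the class of 5478 nt and more, and the members, with a median of 827 nt, had 0.16. For shASXL2-3 against shASXL2-2 these were -0.02, 0.02 and 0.16. For numbers 13 and 25 against number 1 they were 0.0013, -0.0033 and -0.45. Classes were also formed by the median coding transcript, an alternative chosen after seeing the data. For both shRNAs averaged, the shortest of these (at most 918 nt) had 0.06 and the longest -0.08. A further fit took the trend on canonical length and GC content out of each sample, with the number as a block (paired fit). With the block but no correction, the medians of the members were 0.06 for shASXL2-2 and 0.20 for shASXL2-3, beside 0.0052 and 0.0079 over all genes. With the correction they were 0.0027 and 0.14, beside 0.02 and 0.0045 over all genes. By median transcript length they were 0.03 and 0.16, beside 0.02 and 0.0072. With the canonical correction 70 members were called lower in the comparison of numbers, with a median of -0.38. Of all genes in that fit 20.7% were called lower and 31.6% higher, with a median of 0.06. The part of transcript length in the positive values of the knockdown samples was not tested. By abundance, 109 other genes at least as abundant as the lower quartile of the members had a median of 0.05 between number 1 and numbers 13 and 25. Of these, 27.5% were called lower and 25.7% higher.

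**Figure D4:**
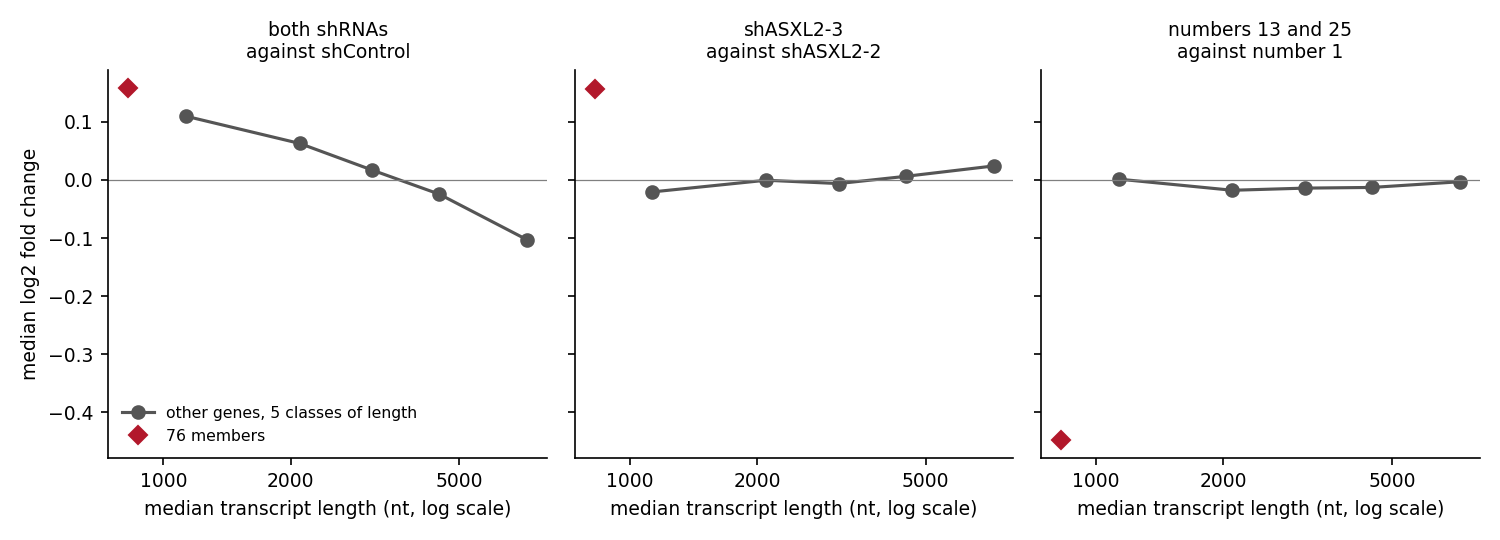
Median log2 fold change against median transcript length (nt, log scale) for other genes in 5 classes of length (circles) and for the 76 members (diamond). The line slopes down from 0.11 to -0.10 for both shRNAs against shControl and is flat for the other 2 comparisons, where the members lie at 0.16 and -0.45.

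The lists of related genes gave the surroundings of this fall. None of their genes passed the test in any comparison among groups, with or without the block. Between number 1 and numbers 13 and 25, 24.1% of all tested genes fell and 22.2% rose. The list of ribosome-bound and nascent-chain proteins, in which TPT1 was also placed, went the same way as the members. In it 4 of 5 fell, among them GNB2L1 (RACK1, on the small subunit) by 0.48 ± 0.09 on the log2 scale, TPT1 by 0.48 ± 0.10 and NACA, which binds emerging chains, by 0.43 ± 0.09. FAU, in which a ubiquitin-like protein is fused to a small-subunit protein, had -0.14 ± 0.07 (adjusted p = 0.112) and did not pass. Of 13 noncoding hosts of small nucleolar RNAs, 9 fell and 0 rose. GAS5, the best known of them, had 484, 371 and 292 CPM in shControl, 496, 304 and 299.9 CPM in shASXL2-2 and 836, 339 and 325 CPM in shASXL2-3, a change of -0.88 ± 0.12 (adjusted p = 0.000636).

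The translation factors split, with 13 of 35 rising and 13 falling, against 22.2% and 24.1% of all tested genes. The elongation factors EEF1A1 (-0.54 ± 0.11), EEF2 (-0.56 ± 0.10), EEF1G and EEF1B2 fell, as did PABPC1, which binds poly(A) tails, EIF4B (-0.86 ± 0.10), and the EIF3 subunits EIF3E, EIF3L, EIF3F, EIF3H and EIF3D. The initiation factors EIF2S1 (0.52 ± 0.09), EIF5A, EIF4G1 and the cap-binding EIF4E (0.36 ± 0.07) rose. Ribosome biogenesis factors went the other way from the ribosomal proteins: 41 of 52 rose and 1, NOB1, fell. UTP20 of the small-subunit processome had 49.6, 60.1 and 82.6 CPM in shControl, 42.2, 62.6 and 73.2 CPM in shASXL2-2 and 25.7, 57.4 and 74.2 CPM in shASXL2-3 and rose by 0.82 ± 0.13, and RRP12 rose by 0.77 ± 0.10. POLR1A, the largest subunit of RNA polymerase I, rose by 0.63 ± 0.12.

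Paralogues that the rule left out did not follow the members either. Of 6 tested, 3 rose, namely RPL26L1 (0.58 ± 0.11), RPL7L1 and RPL22L1, and 0 fell. Among regulators of mTORC1 and TOP mRNAs, 6 of 21 rose, including MTOR (0.77 ± 0.14) and LARP1 (0.25 ± 0.07), and 2 fell, PDCD4 and MYC. Of all tested genes 22.2% rose and 24.1% fell. MYC was lowest at number 13 in every group, with 749.9, 545 and 772 CPM in shControl, 842, 528 and 785 CPM in shASXL2-2 and 719.9, 557 and 794 CPM in shASXL2-3. In the list of p53 and MDM2 genes CDKN1A and PHLDA3 rose and SESN1 fell, of 10 tested, beside the same shares of all genes.

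**Figure D5:**
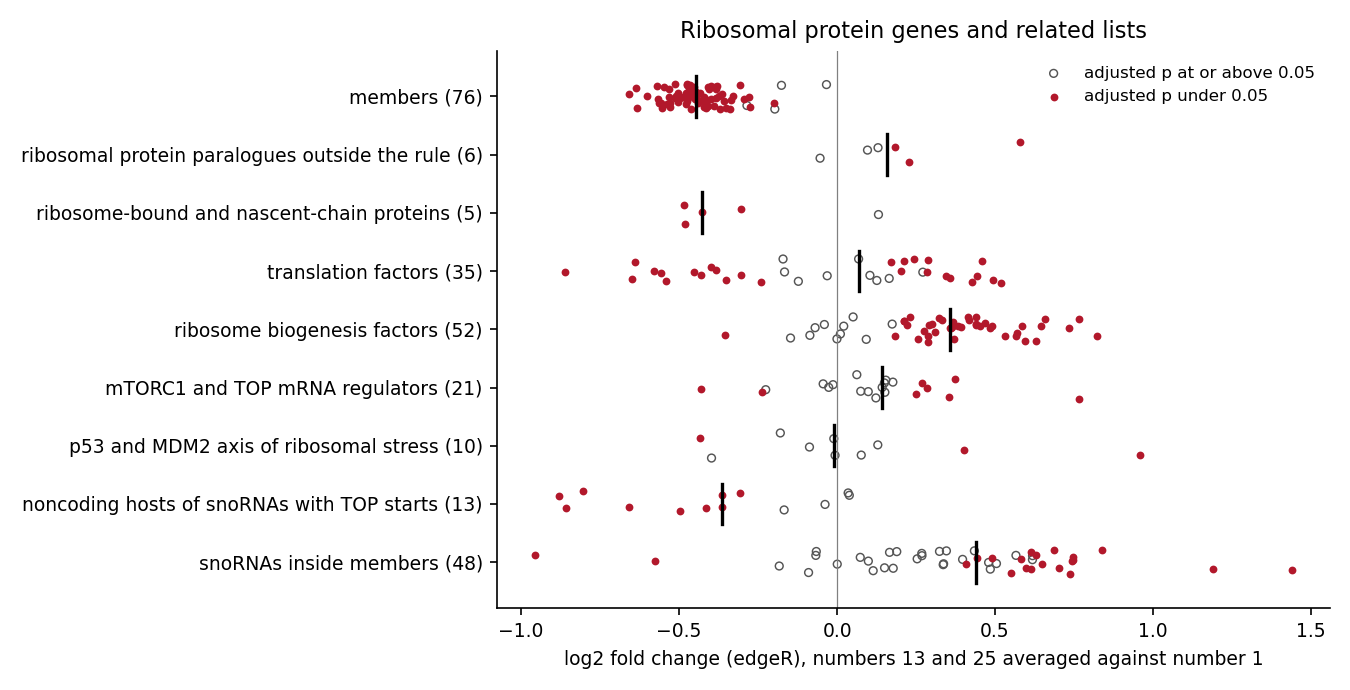
Log2 fold change for numbers 13 and 25 averaged against number 1, for the members, 7 related lists and the small nucleolar RNAs inside members, with the number of tested genes in brackets, filled points for an adjusted p under 0.05 and lines at the median. The members (median -0.45) and the noncoding hosts (-0.37) lie left of 0 and the ribosome biogenesis factors (0.36) right of it.

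Many ribosomal protein genes carry small nucleolar RNAs (snoRNAs) in their introns, which guide the modification of ribosomal RNA and are cut from the same primary transcript. The tables list 52 of them inside 26 members, matched by RefSeq accession, and 13 of these share their name with other annotated copies, whose reads could be shared. Mature snoRNAs have no poly(A) tail, and their levels here are low, with a highest count per sample of 9 to 1599. Because they lie within the host's introns, reads from unspliced host RNA cannot be told from the snoRNA. Between number 1 and numbers 13 and 25, 19 of 48 tested rose and 2 fell, against 22.2% and 24.1% of all tested genes. Their median was 0.44, opposite in sign to that of the members, but it averages numbers 13 and 25, which differed. SNORD83B, in RPL3, had means of 1.58, 1.67 and 4.23 CPM at numbers 1, 13 and 25. SNORD58A, in RPL17, was highest at number 13, with 0.799, 1.54 and 1.18 CPM. The step from number 1 to 13 alone was not tested for the snoRNAs. SNORD101, in RPS12, had 0.798, 1.12 and 2.57 CPM in shControl, 0.938, 1.25 and 2.70 CPM in shASXL2-2 and 0.545, 1.36 and 1.93 CPM in shASXL2-3. RPS12 itself had 2253, 2201 and 1887 CPM in shControl, 2711, 2018 and 1955 CPM in shASXL2-2 and 3243, 2353 and 2083 CPM in shASXL2-3. The snoRNA rose by 1.19 ± 0.21 (adjusted p = 0.00185) and RPS12 fell by 0.38 ± 0.09 (adjusted p = 0.00601). SNORD58B, in RPL17, was the most abundant and fell by 0.57 ± 0.09, and SNORD15A, in RPS3, also fell. From number 13 to 25, where no member passed, 20 snoRNAs rose and 1 fell, with a median of 0.80, beside 2.77% of all tested genes called higher.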

How the data were processed

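RNA-seq was measured in 9 SKNO-1 samples, 3 each of shControl, shASXL2-2 and shASXL2-3, which the study calls biological triplicates. The labels do not say that they were separate cultures, and p-values measure the spread between these samples, which may be technical. The authors deposited raw read counts per RefSeq transcript (48104 per sample), on hg19 (GRCh37). The submitters' processing notes name STAR, featureCounts and DESeq2, with no versions, and the study describes poly(A) libraries that do not mark strand, in methods written for sorted mouse cells.

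Each of 25680 symbols was represented by its most highly counted transcript (summed over samples), giving 27714431 to 35406063 counts per sample. A floor of 3 counts is 0.0825 to 0.109 CPM and covers counting error only, since reads carried no molecular identifiers. Genes passing filterByExpr (minimum count 10, minimum total 15; 14199 genes) were tested by edgeR's quasi-likelihood test (edgeR 4.0.16, R 4.3.3) with TMM scaling and Benjamini-Hochberg adjustment over all of them, at 0.05. Groups were compared with group as the only term (6 residual degrees of freedom), and numbers with number and group (4 residual degrees of freedom). DESeq2 1.42.0 was an alternative, and log2 CPM used a prior count of 2. The code was tested on simulated data.

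Samples that share a number deviated from their group means together, with correlations of 0.398 to 0.731 over 9 pairs, so a fit with the number as a block was used as the paired alternative. Lengths were from GENCODE on GRCh37 (13395 of the tested genes) and starts from RefSeq. Members and gene lists were chosen with earlier results of these data known. Named were ASXL2, the 3 highest, 3 lowest and 3 smallest-p members of each comparison, the 4 highest and 4 lowest per kb, members with set roles, and list genes that passed; RPS15 and the snoRNAs were chosen after their values were seen. Some members and related genes are not reported here by name. Reads shared with pseudogene copies, paralogues or overlapping genes cannot be assigned with certainty.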

Additional observations from a re-analysis of the deposited data

Results flagged for a closer look

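The difference of the knockdown samples from shControl was not of one direction at the 3 numbers. For shASXL2-2 minus shControl, the median log2 difference of the 76 members was 0.237 at number 1, -0.124 at number 13 and 0.0729 at number 25. For shASXL2-3 minus shControl it was 0.500 at number 1, -0.00342 at number 13 and 0.116 at number 25. With 1 sample of each group per number, the differences between numbers were not tested. In 0 members did all 3 differences of shASXL2-2 lie opposite to all 3 of shASXL2-3, against 1.85% of all tested genes.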

How the results depend on the processing

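No member was called in any comparison among groups under any alternative run, including the fits with the sample number as a replicate block, where the medians of the members were 0.06 for shASXL2-2, 0.20 for shASXL2-3, 0.13 for both and 0.15 between the shRNAs. With 1 sample left out in turn, the medians ranged from -0.10 to 0.15 for shASXL2-2, from -0.03 to 0.36 for shASXL2-3, from 0.02 to 0.22 for both and from -0.09 to 0.33 between the shRNAs. For numbers 13 and 25 against number 1, 68 to 75 members were called lower with 1 sample left out, with medians from -0.56 to -0.33, and 70 to 73 under the other alternatives. Of all tested genes 17.3% to 23.1% were called lower with 1 sample left out, and 16.7% to 24.4% under the other alternatives. For number 25 against number 13, 0 to 1 members were called with 1 sample left out, the 1 being RPL23A without the shASXL2-3 sample numbered 1 (19.2% of all genes were then called), with medians from -0.19 to -0.02. Between the numbers, the log2 fold change of RPS26 ranged from -0.12 to 0.027 with 1 sample left out and turned positive at 0.027 without the shASXL2-2 sample numbered 1, 0.0022 without the shASXL2-2 sample numbered 13, 0.0069 with the correction for length and GC content, and 0.0044 with that correction by median transcript length, an alternative chosen after seeing the data; the cause was not tested. RPS18 had too few counts to be tested.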
